A study of Mus musculus with 10 samples.

Results

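The genes described here are 35 genes of the hypoxia response and of glycolysis, taken by gene symbol: HIF subunits, oxygen sensors, known HIF targets and glycolytic enzymes. All 35 were among the 25229 rows of the count table, and 33 were counted highly enough to be tested among the 14251 genes tested. The cells were adipose stem and precursor cells (ASPCs), sorted as CD45-CD31-Pdgfra+ from the perigonadal white adipose tissue (gWAT) of WT mice and grown without passaging until confluent. They then received 100 nM FICZ, a ligand of the aryl hydrocarbon receptor (AHR), or its vehicle DMSO, and were lysed after 6 hr for bulk RNA sequencing. There were 5 libraries per group, numbered 1 to 5 in each. All cells carried the WT genotype, and the labels give neither the oxygen tension nor the age of the mice. Whether libraries came from separate mice is not given for them, so the p-values measure the spread between these libraries only. The comparison asks whether transcripts of the hypoxia response and of glycolysis were at another level after FICZ, since the hypoxia-inducible factors and AHR use the same partner protein, ARNT.

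In cells with enough oxygen, prolyl hydroxylases of the EGLN family mark the HIF alpha subunits for destruction. When oxygen is short the alpha subunits last, pair with ARNT and bind short DNA sites near genes for glucose uptake, glycolysis, vessel growth and collagen maturation. Ligand-bound AHR also pairs with ARNT and binds a related site. Adipose precursor cells use glycolysis throughout growth, and fat tissue that expands can outgrow its blood supply, which is where HIF activity in fat has mostly been described.

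The promoters of 5 of the genes are shown because they hold the short DNA words that both ARNT complexes are known to bind. Egln3, Ddit4 and P4ha1 were the members with the lowest unadjusted p-values in the tests given further on, and Pgk1 and Ldha are glycolytic genes in which HIF sites were classically studied. Each run reads 5′ to 3′ on the strand of the gene, from RefSeq on GRCm38.p6, and covers bases that lie within 250 bases before the RefSeq start and in no exon of the GENCODE annotation. Capitals mark ACGTG, a core of the HIF site, and GCGTG, the core of the AHR site, or their reverse complements CACGT and CACGC. HIF sites can also hold GCGTG, so a GCGTG core does not mark AHR sites alone. The regions are chr12:54203875-54204124 for Egln3, chr10:59951835-59952020 for Ddit4 and chr10:59323046-59323295 for P4ha1. Those of the glycolytic genes are chrX:106186850-106187099 for Pgk1 and chr7:46845554-46845803 for Ldha. Egln3 and Ddit4 lie on the minus strand.
Egln3: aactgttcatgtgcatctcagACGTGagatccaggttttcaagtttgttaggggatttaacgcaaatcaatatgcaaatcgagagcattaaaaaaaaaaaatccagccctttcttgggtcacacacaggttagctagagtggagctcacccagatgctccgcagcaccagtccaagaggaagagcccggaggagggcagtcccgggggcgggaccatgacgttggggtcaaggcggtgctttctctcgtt
Ddit4: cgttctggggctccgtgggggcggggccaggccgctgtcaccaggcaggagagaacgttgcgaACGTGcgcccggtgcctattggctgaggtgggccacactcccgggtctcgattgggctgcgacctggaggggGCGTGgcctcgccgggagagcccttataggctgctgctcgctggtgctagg
P4ha1: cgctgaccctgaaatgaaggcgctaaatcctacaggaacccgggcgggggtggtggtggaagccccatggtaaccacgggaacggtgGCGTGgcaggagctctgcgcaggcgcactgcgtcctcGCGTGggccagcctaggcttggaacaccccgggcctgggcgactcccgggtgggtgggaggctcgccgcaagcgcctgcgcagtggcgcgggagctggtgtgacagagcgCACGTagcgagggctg
Pgk1: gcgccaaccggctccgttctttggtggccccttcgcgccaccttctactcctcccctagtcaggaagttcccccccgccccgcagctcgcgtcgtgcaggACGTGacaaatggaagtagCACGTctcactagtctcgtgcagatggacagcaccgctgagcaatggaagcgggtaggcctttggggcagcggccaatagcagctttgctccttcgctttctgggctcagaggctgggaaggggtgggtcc
Ldha: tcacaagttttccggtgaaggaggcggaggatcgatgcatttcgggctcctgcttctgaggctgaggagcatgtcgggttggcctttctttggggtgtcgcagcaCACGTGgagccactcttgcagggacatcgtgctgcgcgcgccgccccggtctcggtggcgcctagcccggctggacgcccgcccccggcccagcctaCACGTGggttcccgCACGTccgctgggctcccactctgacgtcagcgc
In the shown window Egln3 holds 1 ACGTG core and no GCGTG core, with 224 bases between that core and the RefSeq start. P4ha1 holds 1 ACGTG core and 2 GCGTG cores, the nearest of them 11 bases from the start, and Ddit4 holds 1 of each. Pgk1 holds 2 ACGTG cores. Ldha holds 5 matches to ACGTG or its complement, because the palindrome CACGTG is read on both strands. RefSeq windows of 300 bases, from 250 before to 50 after the start, were in the table used for 31 of the 35 genes and not for Bnip3l, Plod2, Ndrg1 and Epas1. At least 1 ACGTG core was present in 22 of the 31 genes, and in 56.8% of their 44 promoters against 19.6% of all 32851 promoters of that length. A GCGTG core was present in 20 of the 31 genes, and in 52.3% of their promoters against 32.4% of all promoters. Either core was present in 29 of the 31 genes, in 79.5% of their promoters against 43.8% of all, and Gpi1 and Tpi1 held neither. The genes were listed partly because they are HIF targets, so these shares are descriptions of the windows and not tests.

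The total per library ranged from 38328611 to 50210111 counts, at which 3 counts are between 0.0597 and 0.0783 per 1000000 counts, a floor that covers counting error only. Levels are given as CPM, the count per 1000000 of the library total after TMM scaling. The genes described here took between 0.67% and 0.767% of all counts. The sort was checked against marker genes. The summed level of 7 ASPC markers was between 3094 and 4127 CPM in DMSO and between 3138 and 3845 CPM in FICZ. Of 5 adipocyte markers Lep was at 0 in every library. Their sum was between 51.9 and 87.4 CPM in DMSO and between 62.9 and 101 CPM in FICZ. Most of it was Fabp4, with a mean of 57.2 CPM in DMSO and 67.4 CPM in FICZ. Adipoq, Plin1 and Cidec had means of 3.9, 7.0 and 2.23 CPM in DMSO and of 3.66, 7.05 and 0.89 CPM in FICZ. The sum of 3 endothelial markers was at most 14.4 CPM, that of 4 leukocyte and macrophage markers at most 23.0 CPM and that of 2 mesothelial markers at most 3.3 CPM, and both red cell markers were at 0. Transcripts of 5 hepatocyte markers, which ASPCs are not known to make, were counted in every library, between 925 and 6185 CPM in DMSO and between 896 and 1382 CPM in FICZ. DMSO replicate 5 had the highest of these sums. DMSO replicates 1 and 4, at 2514 and 2272 CPM, also lay above every FICZ library, and replicates 2 and 3, at 925 and 987 CPM, did not. Several fold changes that rest on DMSO replicate 5 are given with and without it, while levels per length include it. In bulk samples fewer cells of a type and less RNA per cell cannot be told apart. Cyp1a1, the monooxygenase gene classically induced by AHR and read here as the check of treatment, was at 26.8 ± 12.8 CPM without and 255 ± 92.4 CPM with FICZ (SD, n = 5 libraries each).

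Levels per length were compared first, as CPM per kilobase of exon in the DMSO libraries. The order of the 35 genes ran from Pkm, the gene of the pyruvate kinase of most tissues, at 275 ± 58.2 (SD, n = 5 libraries, as for the levels that follow) to Car9, a carbonic anhydrase, at 0.0464 ± 0.0269. Pkm, Ldha (226 ± 16.4), Aldoa (224 ± 16.4) and Gapdh (214, from 197 to 242) stood at the top with ranges that overlapped between neighbours, and the range of Gapdh lay above that of Gpi1, which came next (97.3 ± 4.79). Ldha makes lactate from pyruvate, and Aldoa, Gapdh and Gpi1 encode aldolase, glyceraldehyde phosphate dehydrogenase and glucose phosphate isomerase. Tpi1, Eno1 and Pgk1 followed, with neighbouring ranges that overlapped. Hif1a was at 37.5 ± 8.56 and Epas1, the gene of the HIF2 alpha subunit, at 32.7 ± 4.95, in ranks 13 and 14, with overlapping ranges. Further neighbours whose ranges did not overlap were Slc2a1 and Egln1, Bnip3l and Hk2, Kdm3a and Mxi1, Mxi1 and Ndrg1, and Slc16a3 and Ankrd37.

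Levels per length were also compared within enzyme and protein families. Among hexokinases, Hk1 was at 14.3 ± 2.63 CPM per kilobase and Hk2, the HIF-responsive isoform, at 11.1 ± 2.71, and their ranges overlapped. Among lactate carriers, Slc16a1 was at 12.9 ± 1.14 CPM per kilobase and Slc16a3, the carrier of strongly glycolytic cells, at 0.585 ± 0.12. Pyruvate dehydrogenase kinases, which hold pyruvate back from the mitochondria, were led by Pdk3 at 16.6 ± 3.06 CPM per kilobase, while the HIF target Pdk1 was at 0.85 ± 0.419. Of the oxygen sensors Egln2 was at 24.3 ± 6.34, Egln1 at 18.0 ± 2.37 and Egln3 at 1.25 ± 0.192 CPM per kilobase. The third HIF alpha gene, Hif3a, was at 0.0713 ± 0.0193 CPM per kilobase. Pfkm, at 10.1 ± 1.76, was the phosphofructokinase gene with the highest mean level per length, above Pfkp at 6.65 ± 1.44 and Pfkl at 5.83 ± 1.67. The range of Pfkm, from 7.49 to 12.4, overlapped that of Pfkp, which reached 7.67. In CPM the order was the reverse, with means of 89.1 for Pfkp, 38.9 for Pfkl and 33.7 for Pfkm in DMSO. The exon lengths used were 13401, 6675 and 3340 bases in that order, so which isoform led depends on the length used. Exons of all annotated transcripts of a gene were counted in its length, so a gene with long exons that are little used is placed too low on this scale.

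**Figure D1:**
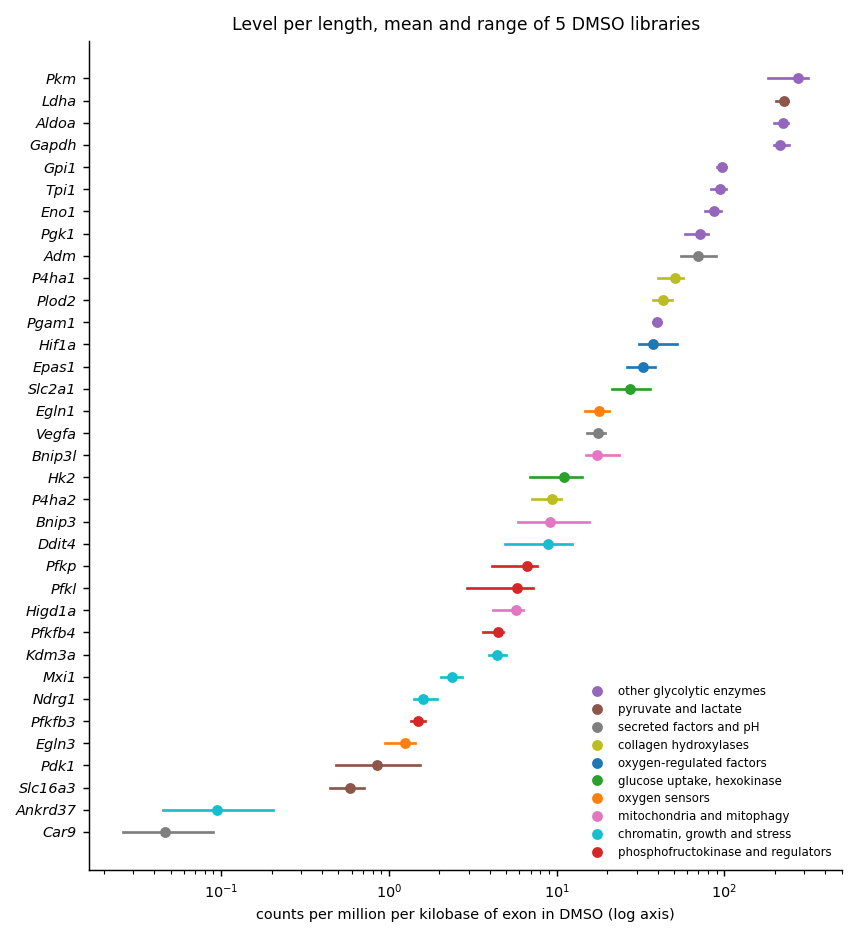
Level of the 35 genes in the 5 DMSO libraries, as CPM per kilobase of exon on a log axis; points are means, lines run from the lowest to the highest library, and colours mark roles. Levels run from 275 for Pkm to 0.0464 for Car9, and the enzymes of lower glycolysis fill the upper end.

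None of the 33 tested genes passed the threshold (adjusted p at or under 0.05) between FICZ and DMSO. This held in edgeR's quasi-likelihood test, in which 0.0211% of all genes tested passed and the smallest adjusted p among the 33 was 0.999. It held as well with the replicate number as a block (0.0561% of all genes passed, smallest adjusted p of 0.8 in edgeR). In DESeq2, where all 35 genes had an adjusted p, 0.0845% of genes passed without the block and 0.14% with it, and the smallest adjusted p among the 35 was 0.594 and 0.294. The log2 fold changes of the 33 genes ran from -0.33 for Bnip3 to 0.75 for Egln3, with a median of 0.04 against 0.01 over all genes tested. They were positive for 22 genes and negative for 11, and 26 were within 0.15 of 0. The median standard error of the 33 log2 fold changes was 0.12, against 0.14 over all genes tested. The 95% intervals left out a change of 1.5-fold in either direction for 28 of the 33 genes and a change of 2-fold for 31. The genes for which a 1.5-fold change lay within the interval were Egln3, Slc16a3, Pdk1, Bnip3 and Ddit4, and for Egln3 and Ddit4 so did a 2-fold change.

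**Figure D2:**
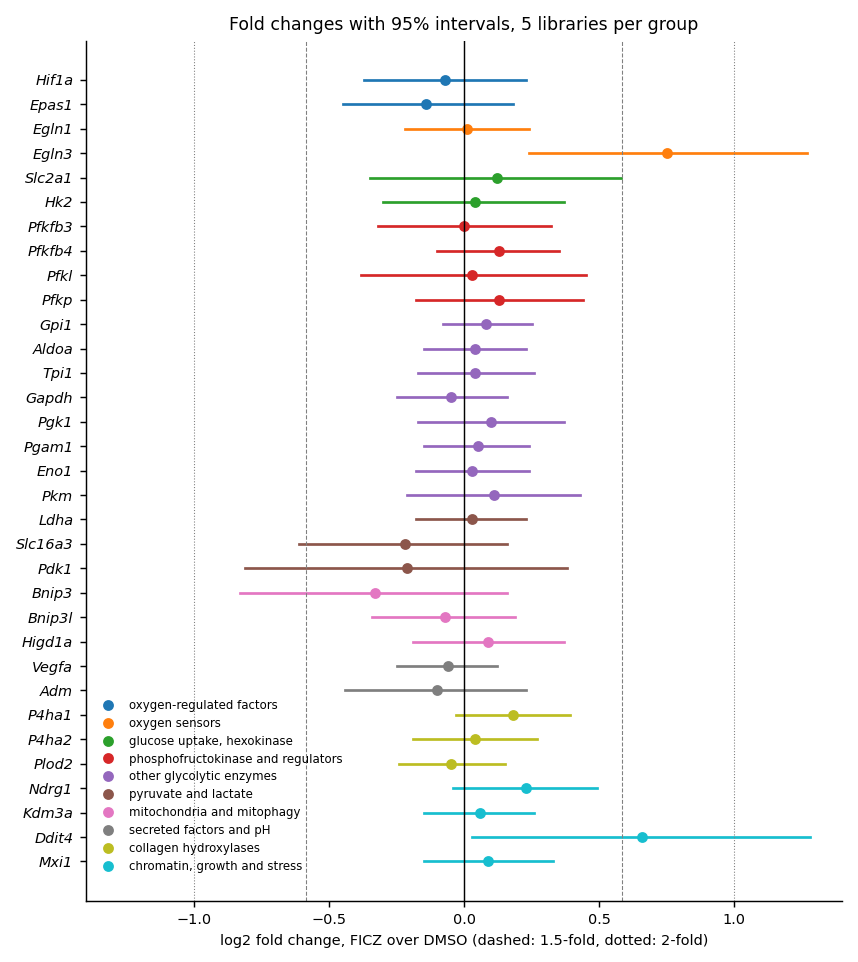
Log2 fold change of FICZ over DMSO for the 33 tested genes (points) with 95% intervals from edgeR's quasi-likelihood fit of 5 libraries per group (lines), coloured by role. The intervals of 31 genes, all but Egln3 and Ddit4, include 0, and 28 lie inside the dashed lines of 1.5-fold.

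At an unadjusted p of 0.05 or less, 2 of the 33 genes were higher with FICZ (6.06%, against 1.33% of all genes tested) and 0 were lower (against 3.49% of all). The 2 were Egln3 and Ddit4, and DESeq2 without the block gave the same 2 names. With the replicate block edgeR gave 3 higher (9.09%, against 2.48% of all), namely Egln3, P4ha1 and Ndrg1. It gave 1 lower (3.03%, against 2.17%), namely Epas1. DESeq2 with the block gave 3 higher, Egln3, P4ha1 and Ddit4, and 0 lower. Its shares over all genes at that p are not given here. For no gene of the 33 did all FICZ libraries lie above all DMSO libraries (0.351% of all genes tested) or below them (0.119%). When same-numbered libraries were compared, Gpi1, Aldoa and P4ha1 were higher with FICZ in all 5 pairs (9.09%, against 4.32% of all genes) and Epas1 was lower in all 5 (3.03%, against 2.81%). Averaged over all 35 genes, log2 CPM in DMSO replicates 1 to 5 was 5.75, 5.65, 5.72, 5.68 and 5.58. In FICZ replicates 1 to 5 it was 5.72, 5.72, 5.75, 5.70 and 5.69. The group means differed by 0.04, where the SD within DMSO was 0.07, and the pair differences were -0.03, 0.07, 0.03, 0.02 and 0.11. Over the 33 tested genes alone, a set chosen after seeing the data, the difference was 0.06. FICZ was higher in all 5 pairs, by 0.06, 0.08, 0.03, 0.00 (rounded) and 0.13. The 2 genes left out, Car9 and Ankrd37, had pair 1 differences of -1.36 and -1.64 and at most 12 counts per library. Over the 33 genes DMSO replicate 5 was the lowest library, at 6.07, and the difference without it is not given. Over all genes tested the difference was -0.02, and FICZ was higher in 1 of 5 pairs. Without DMSO replicate 5 the difference over the 35 genes was 0.02.

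Both HIF alpha genes were well expressed. Hif1a was at 182, 210, 190, 216 and 308 CPM in DMSO replicates 1 to 5 and at 187, 210, 205, 209 and 242 CPM in FICZ replicates 1 to 5. The groups overlapped, the highest value of each group was in replicate 5, and the log2 fold change was -0.07 (standard error 0.14). Without DMSO replicate 5 it was 0.08. Epas1 was at 147, 172, 173, 206 and 215 CPM in DMSO and at 122, 151, 168, 184 and 205 CPM in FICZ. The 5 numbers ranked alike for Epas1 in both groups, and in each pair the FICZ library was the lower. Its log2 fold change was -0.14 (standard error 0.14), and with the replicate block -0.15 (standard error 0.06, unadjusted p = 0.0471, adjusted p = 0.929 in edgeR). In DESeq2 with the block the unadjusted p of Epas1 was 0.0724. Exons of Gm15283 and Gm49321 overlap those of Hif1a, so counts of Hif1a may include reads of these.

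The partner genes were looked at beside them. Arnt, whose protein both HIF alpha subunits and AHR need, was at 77.1, 84.8, 80.5, 98.2 and 89.7 CPM in DMSO and at 77.2, 81.6, 80.8, 92.2 and 98.1 CPM in FICZ. The change of Arnt was 0.00 on the log2 scale with a 95% interval from -0.20 to 0.20. Ahr was at 15.2, 13.6, 15.0, 11.3 and 16.4 CPM in DMSO and at 8.64, 11.9, 14.4, 8.36 and 9.29 CPM in FICZ, lower in each pair. Its log2 fold change was -0.44 (standard error 0.16, unadjusted p = 0.0196, adjusted p = 0.999 in edgeR). With the replicate block it was -0.46 (standard error 0.13, unadjusted p = 0.0103, adjusted p = 0.929 in edgeR). Ahrr, the gene of the AHR repressor, which also binds ARNT, was between 6.24 and 11.6 CPM in DMSO and between 27.4 and 34.6 CPM in FICZ. Tiparp, an AHR target that encodes an ADP-ribosyltransferase, was between 40.8 and 49.7 CPM in DMSO and between 69.1 and 103 CPM in FICZ. Ahrr, Tiparp and Cyp1a1 were the 3 genes past the threshold in edgeR's test of all genes, with adjusted p of 0.00324, 0.0335 and 0.0189 in that order. With the replicate block Tiparp was just outside it (adjusted p = 0.0509 in edgeR), and Ahrr and Cyp1a1 passed.

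Of the oxygen sensors, Egln1, the main HIF prolyl hydroxylase of most cells, had a log2 fold change of 0.01 with a 95% interval from -0.22 to 0.24. Egln3, a prolyl hydroxylase that is itself a HIF target, lies on chromosome 12 (54178981 to 54203860, minus strand, GRCm38) and had the highest log2 fold change of the 33 genes. It was at 3.67, 3.11, 3.82, 2.53 and 3.43 CPM in DMSO, from 110 to 167 counts per library. In FICZ it was at 6.96, 6.96, 6.84, 3.96 and 3.21 CPM, from 139 to 328 counts. FICZ replicates 1 to 3 lay well above all DMSO libraries, FICZ replicate 4 lay just above them and FICZ replicate 5 lay among them. The log2 fold change was 0.75 (standard error 0.23, unadjusted p = 0.00782, adjusted p = 0.999 in edgeR), and 0.70 with the replicate block (standard error 0.19, unadjusted p = 0.00673, adjusted p = 0.8). Permuting the group labels of the 10 libraries in every possible way (exact test on log2 CPM, two-sided) gave p = 0.0476, where the smallest possible is 0.00794. The unadjusted p stayed at or under 0.05 in each of the 10 fits without 1 library, with log2 fold changes from 0.66 to 0.89. With FICZ replicate 5 left out the groups of Egln3 no longer overlapped, though groups separate more easily with 1 library fewer. None of its 50-base words occurs in another gene, and it had no overlapping exon. The difference of Egln3 did not pass over all genes, its groups overlapped and pair 5 differed by -0.09, against 0.64 to 1.15 in the other pairs.

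Glucose uptake and its trapping in the cell are represented by Slc2a1, the glucose transporter GLUT1, and Hk2. Slc2a1 was at 111, 93.0, 126, 77.2 and 75.0 CPM in DMSO and at 112, 111, 151, 76.2 and 72.9 CPM in FICZ. Replicates 4 and 5 were the lowest of each group, and replicate 3 was the highest of each. Its log2 fold change of 0.12 (standard error 0.21) changed sign to -0.05 without FICZ replicate 3. Hk2 was at 70.0, 74.2, 84.9, 61.9 and 41.7 CPM in DMSO and at 68.2, 70.1, 72.9, 65.9 and 64.0 CPM in FICZ. DMSO replicate 5 was the lowest of all, and the SD was 16.2 CPM in DMSO and 3.49 CPM in FICZ. Hk2 had a log2 fold change of 0.04 (standard error 0.15), and of -0.09 without DMSO replicate 5.

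Phosphofructokinase commits sugar to glycolysis, and the PFKFB enzymes make its activator. Pfkl, Pfkp, Pfkfb3 and Pfkfb4 had log2 fold changes between 0.00 and 0.13, with 95% intervals that together ran from -0.38 to 0.45. Pfkl was at 42.0, 41.6, 48.5, 42.9 and 19.6 CPM in DMSO and at 41.1, 40.8, 37.5, 40.3 and 39.6 CPM in FICZ. A single library, DMSO replicate 5, set the overlap of its groups, since every FICZ library lay below DMSO replicates 1 to 4. Pfkp was at 92.8, 95.1, 103, 99.6 and 55.3 CPM in DMSO and between 94.6 and 100 CPM in FICZ. It had the smallest SD of log2 CPM among the FICZ libraries (0.03).

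The 8 genes of the remaining glycolytic steps, from glucose phosphate isomerase to pyruvate kinase, had log2 fold changes between -0.05 for Gapdh and 0.11 for Pkm, with a median of 0.04. Their 95% intervals ran from -0.25 to 0.43, so that a change of 1.5-fold lay outside the interval for each of the 8. Pkm was at 1577, 1536, 1580, 1278 and 906 CPM in DMSO and at 1645, 1579, 1330, 1416 and 1442 CPM in FICZ, DMSO replicate 5 being the lowest. Gpi1 was at 666, 631, 635, 627 and 580 CPM in DMSO and at 682, 652, 705, 683 and 601 CPM in FICZ. Although each FICZ library of Gpi1 lay above its same-numbered DMSO library, the pair differences of 0.03 to 0.15 on the log2 scale were small, and the log2 fold change was 0.08 (standard error 0.07). Aldoa had pair differences of 0.02 to 0.06. Gapdh, which is often used to scale other transcripts, had a mean of 884 CPM (SD 91.0) with vehicle and of 856 CPM (SD 64.7) with FICZ. Averaged over the 12 enzyme genes from Hk2 to Ldha, log2 CPM was 8.19, 8.15, 8.21, 8.06 and 7.76 in DMSO replicates 1 to 5. In FICZ it was 8.24, 8.16, 8.16, 8.11 and 8.02, and the largest pair difference, 0.26, was that of pair 5. Counts of Gapdh, Pgk1, Pgam1, Eno1 and Pkm are uncertain. Between 25.12% and 53.88% of the 50-base words of their transcripts also occur in other genes, and how such reads were counted is not stated. For Pkm, 767 exon bases overlap exons of Gm49759 on the same strand.

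At the exit of glycolysis, Ldha was at 764, 794, 793, 716 and 668 CPM in DMSO and at 845, 800, 804, 676 and 679 CPM in FICZ. Replicates 4 and 5 were the lowest in both groups, and the log2 fold change was 0.03 (standard error 0.09). Slc16a3 was at 3.78, 2.57, 3.69, 3.16 and 2.36 CPM in DMSO and at 2.76, 3.16, 2.25, 2.53 and 2.61 CPM in FICZ, from 89 to 161 counts. Its groups overlapped widely, and the log2 fold change was -0.22 (standard error 0.18). Pdk1 was at 5.77, 3.76, 4.31, 7.33 and 11.9 CPM in DMSO and at 4.78, 5.71, 5.83, 5.83 and 6.35 CPM in FICZ. It had the largest SD of log2 CPM of the 33 genes in DMSO (0.66), set by DMSO replicate 5. The log2 fold change of Pdk1 was -0.21 (standard error 0.27), and 0.11 without that library.

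Bnip3 and Bnip3l, which tag mitochondria for removal, and Higd1a, a mitochondrial protein of the inner membrane, did not pass. Bnip3 was at 17.7, 16.0, 13.3, 20.5 and 35.2 CPM in DMSO and at 17.2, 15.5, 13.4, 16.7 and 18.8 CPM in FICZ. Only DMSO replicate 5 lay far from the rest, and pairs 1 to 3 differed by 0.05 or less on the log2 scale. The log2 fold change, -0.33 (standard error 0.23), was the most negative of the 33 and was -0.05 without DMSO replicate 5. Bnip3l was highest in the same library, at 90.9 CPM against 57.6 to 66.3 CPM in the other DMSO libraries. Of the 50-base words of Bnip3, 47.17% occur in other genes, and for Bnip3l and Higd1a the share was 20.76% and 24.43%.

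Among secreted factors, Vegfa, the main growth factor of blood vessels, was at 83.6, 75.5, 83.2, 64.6 and 70.7 CPM in DMSO. In FICZ it was at 77.3, 72.7, 71.6, 66.7 and 73.6 CPM, a log2 fold change of -0.06 with a 95% interval from -0.25 to 0.12. Adm, which encodes the vessel-dilating peptide adrenomedullin, had a mean of 113 CPM (SD 20.3) with vehicle and of 105 CPM (SD 20.0) with FICZ. Car9, an acid-handling enzyme of the cell surface whose gene is scarcely transcribed without HIF activity in many cell types, was at 0.131, 0.0603, 0.0687, 0.0691 and 0.205 CPM in DMSO. In FICZ it was at 0.0234, 0.0424, 0.0505, 0.138 and 0.0693 CPM. These values are 1 to 10 counts per library, near the floor of 3 counts, so only a large change of Car9 was detectable at this depth. In DESeq2 its log2 fold change was -0.73, with a 95% interval from -2.2 to 0.74. Ankrd37, an ankyrin repeat gene known as a HIF target, was at 0.315, 0.0804, 0.183, 0.0691 and 0.0821 CPM in DMSO and at 0.0703, 0.0849, 0.202, 0.0691 and 0.185 CPM in FICZ, from 3 to 12 counts. Part of the exons of Ankrd37 overlap those of Lrp2bp and Ufsp2, so that even these counts may not all be its own.

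The collagen hydroxylases prepare collagen for secretion and crosslinking, a main product of stromal cells. P4ha1, a prolyl hydroxylase subunit on chromosome 10 (59323296 to 59373304), was at 209, 218, 223, 233 and 166 CPM in DMSO and at 235, 239, 251, 245 and 218 CPM in FICZ. Each pair was higher with FICZ, and the groups overlapped through FICZ replicate 5. The log2 fold change was 0.18 (standard error 0.09, unadjusted p = 0.0828 in edgeR), and with the replicate block 0.19 (standard error 0.07, unadjusted p = 0.0245, adjusted p = 0.929). It was 0.11 without DMSO replicate 5 and 0.09 when Alb, the albumin gene of liver, entered the fit as a covariate. The same exact permutation test gave p = 0.0397 for P4ha1, 0.111 for Ddit4, 0.0873 for Ndrg1 and 0.389 for Epas1. With Egln3 they were the members at an unadjusted p of 0.05 or less in edgeR, with or without the block. P4ha2 had a log2 fold change of 0.04 and Plod2, a lysyl hydroxylase, of -0.05, both with standard errors larger than the change.

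Of the regulators of growth, stress and chromatin, Ddit4, an inhibitor of mTOR signalling that responds to several stresses, lies on chromosome 10 (59949669 to 59951834). It was at 14.1, 17.7, 15.6, 21.8 and 8.62 CPM in DMSO and at 25.4, 23.4, 11.8, 26.3 and 36.1 CPM in FICZ. FICZ replicate 3 lay below 4 of the DMSO libraries, the other FICZ libraries lay above all DMSO libraries, and the pair difference of replicate 5 was 2.06 on the log2 scale. The log2 fold change was 0.66 (standard error 0.28, unadjusted p = 0.0404, adjusted p = 0.999 in edgeR), and 0.62 with the replicate block (standard error 0.33, unadjusted p = 0.102). It was 0.50 without DMSO replicate 5, 0.45 with Alb as a covariate, 0.47 without FICZ replicate 5 and 0.28 with the block and without pair 5. The unadjusted p was at or under 0.05 in 3 of the 10 edgeR fits without 1 library. In DESeq2 with the block Ddit4 had an unadjusted p of 0.0198 and an adjusted p of 0.989. Ndrg1, a stress-response gene, was at 9.44, 9.38, 9.44, 12.8 and 12.2 CPM in DMSO and at 12.4, 10.9, 12.8, 12.5 and 13.8 CPM in FICZ. DMSO replicates 4 and 5 overlapped the FICZ libraries, and the log2 fold change was 0.23 (standard error 0.12, unadjusted p = 0.0837 in edgeR). With the replicate block it was 0.24 (standard error 0.09, unadjusted p = 0.0359, adjusted p = 0.929 in edgeR). In DESeq2 with the block the unadjusted p of Ndrg1 was 0.0682. Kdm3a, a histone demethylase, and Mxi1, an antagonist of MYC, had log2 fold changes of 0.06 and 0.09 with intervals that included 0.

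**Figure D3:**
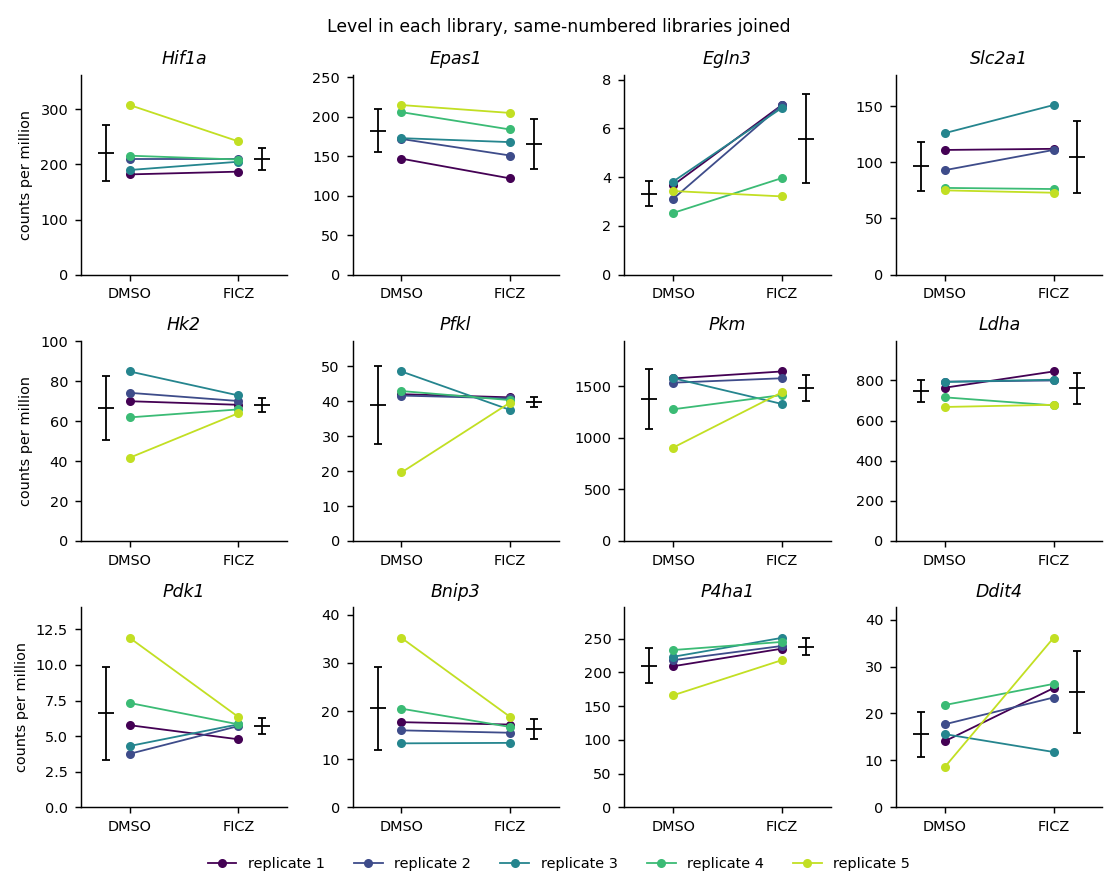
CPM of 12 of the genes in each library, with same-numbered DMSO and FICZ libraries joined by a line and the mean ± SD of each group beside the points (n = 5). Egln3 is at 6.84 to 6.96 in FICZ replicates 1 to 3, Epas1 is lower at the FICZ end of each line, and DMSO replicate 5 lies apart for Hif1a, Hk2, Pfkl, Pkm, Pdk1 and Bnip3.

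The same-numbered libraries of both groups were then set side by side. Of the 33 genes, 13 were highest in the same number in both groups (39.4%, against 35.1% of all genes tested) and 17 were lowest in the same number (51.5%, against 31.5%). For 7 genes both ends fell in the same numbers (Hif1a, Epas1, Slc2a1, Hk2, Bnip3, Vegfa and Plod2), and over all genes tested this held for 14.0%. With the replicate block the median standard error of the 33 log2 fold changes was 0.09, against 0.12 without it. The meaning of a number, whether mouse, culture or day, is not given in the labels.

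The median SD of log2 CPM in DMSO was 0.22 over the 33 genes and 0.24 over all genes tested, and without DMSO replicate 5 it was 0.14 and 0.15. This library was the lowest in DMSO for 20 of the 33 genes (60.6%) and the highest for 7 (21.2%), where over all genes tested it was lowest for 37.4% and highest for 35.8%. Against the median of the other DMSO libraries, 8 genes (24.2%) were lower by more than 0.5 on the log2 scale and 4 (12.1%) were higher, and over all genes tested these shares were 18.9% and 18.5%, so that deviations of this size were about as frequent among the 33 as among all genes. The low ones were Pfkl (-1.11), Ddit4 (-0.95), Pfkp (-0.81), Hk2 (-0.79), Pkm (-0.78), Higd1a (-0.54), Slc16a3 (-0.52) and P4ha2 (-0.52), among them 4 glycolytic enzymes. The high ones were Pdk1 (1.25), Bnip3 (1.06), Hif1a (0.63) and Bnip3l (0.58). Without DMSO replicate 5 the log2 fold change was -0.14 for Pfkl (standard error 0.07), 0.00 for Pfkp, -0.01 for Pkm, -0.01 for Higd1a, -0.04 for P4ha2, -0.31 for Slc16a3 and 0.06 for Bnip3l. Its sign for Pfkl, Pkm, Higd1a, P4ha2 and Bnip3l was then the opposite of that with all libraries. These 7 values and that of Pklr were computed after the data were seen. In FICZ replicate 5 the comparison with the rest of its group gave -0.03 for Pfkl, -0.05 for Pkm, 0.14 for Pdk1 and 0.22 for Bnip3. DMSO replicate 5 also had the highest sum of hepatocyte markers and of leukocyte and macrophage markers (23.0 CPM), and the lowest sum of markers of dividing cells in its group (929 CPM, where the other DMSO libraries had 1154 to 1437), and their part in these values was not tested.

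**Figure D4:**
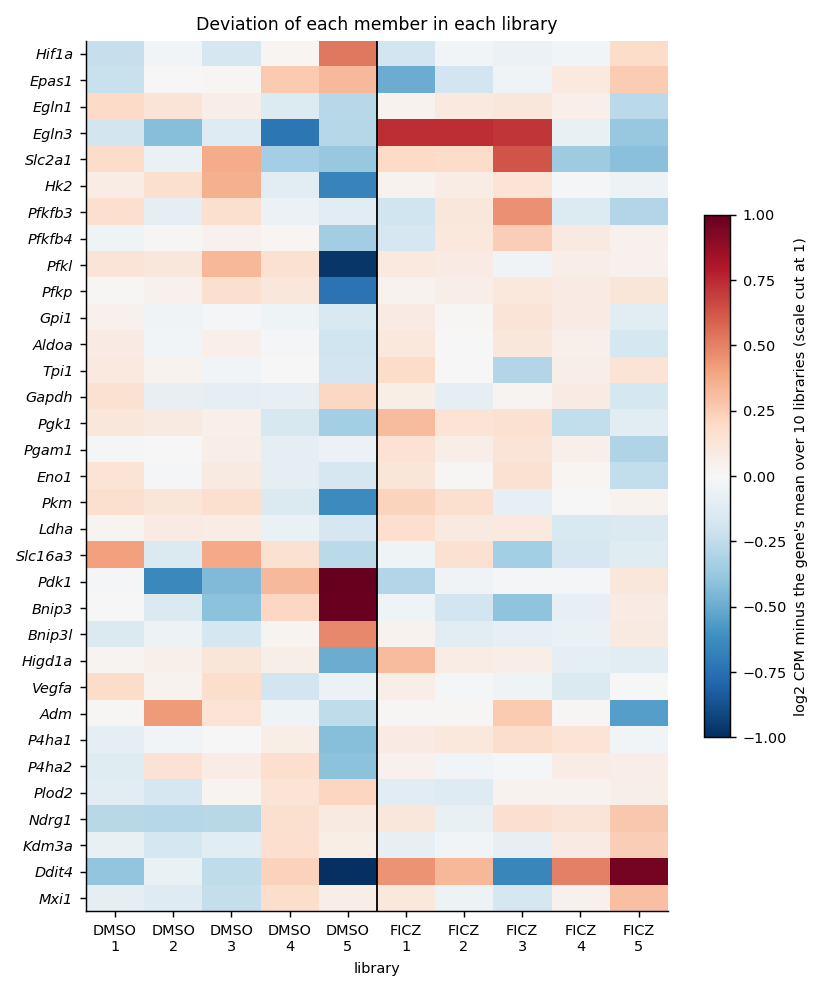
Log2 CPM of the 33 tested genes in the 10 libraries, as the deviation from each gene's mean, with blue below and red above it and the colour scale cut at 1. The column of DMSO replicate 5 is the most strongly coloured, and Egln3 is red in FICZ replicates 1 to 3.

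Further genes of the same pathways were read from the same fit. Of 62 such genes in the table (regulators of HIF, other isoforms of glycolysis, pyruvate dehydrogenase and its kinases, and other HIF targets) 58 were tested, with a median log2 fold change of -0.01. None passed the threshold in edgeR or DESeq2, with or without the replicate block, and the smallest adjusted p was 0.369, in DESeq2 with the block. At an unadjusted p of 0.05 or less in edgeR there were 1 higher, Pdk4, and 3 lower, of which Pklr is described here. These counts are of the 58 tested, where over all genes tested 1.33% were higher and 3.49% lower at that p. Pdk4, a pyruvate dehydrogenase kinase that spares glucose, was at 9.52, 11.1, 12.7, 9.63 and 8.37 CPM in DMSO and at 11.9, 12.9, 15.2, 14.2 and 12.8 CPM in FICZ. It was higher with FICZ in all 5 pairs, and only DMSO replicate 3 reached into the FICZ range. Pdk4 had a log2 fold change of 0.38 (standard error 0.12, unadjusted p = 0.00985, adjusted p = 0.999 in edgeR), and 0.39 with the block (standard error 0.09, unadjusted p = 0.00324, adjusted p = 0.659).

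Pklr encodes a pyruvate kinase of liver and red cells. It was at 10.1, 4.36, 5.41, 11.3 and 27.7 CPM in DMSO and at 5.69, 5.71, 6.00, 3.45 and 5.36 CPM in FICZ. DMSO replicate 5 was the highest library and the groups overlapped, and the log2 fold change was -1.17 (standard error 0.43, unadjusted p = 0.0204, adjusted p = 0.999 in edgeR). It was -0.88 with the replicate block (standard error 0.43, unadjusted p = 0.0841) and -0.57 without DMSO replicate 5 (standard error 0.28, unadjusted p = 0.0641). The highest CPM of Pklr was 8.03 times the lowest over the 10 libraries. For each 1000 counts of Alb it had between 5.07 and 7.15 counts, a range of 1.41-fold. Pdk1 and Bnip3, the 2 members highest in DMSO replicate 5 against the rest of its group, had ranges of 3.16-fold and 2.64-fold in CPM and of 3.44-fold and 3.33-fold per Alb count. The range of Pklr was narrower per Alb count than in CPM, and those of the members Pdk1 and Bnip3 were wider. Alb itself ran from 682 to 4782 CPM, which also sets these ratios, and the source of the transcripts was not tested. With Alb as a covariate the log2 fold changes of Pdk1 and Bnip3 were 0.306 and 0.055, against -0.214 and -0.334 without it. With the replicate block the unadjusted p in edgeR was at or under 0.05 for Pdk4, Hmox1 (heme oxygenase) and Tfrc (the transferrin receptor), which were higher. It was so too for Pdk2, which was lower in all 5 pairs. These were 3 higher and 1 lower of the 58 tested, where over all genes tested 2.48% were higher and 2.17% lower. Hmox1 was at 620, 515, 872, 343 and 291 CPM in DMSO and at 650, 690, 1018, 484 and 293 CPM in FICZ, highest in replicate 3 and lowest in replicate 5 of both groups. Its log2 fold change with the block was 0.24 (standard error 0.09), that of Tfrc was 0.19 (standard error 0.08) and that of Pdk2 was -0.33 (standard error 0.12), each with an adjusted p of 0.929 in edgeR. Epo, the classical HIF target of kidney and liver, had no count in any library.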

How the data were processed

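Bulk RNA sequencing of cultured mouse ASPCs, 5 libraries with DMSO and 5 with FICZ, was re-analysed. Reads had been aligned to mm10 with STAR 2.7.7, according to the submitters' processing notes, and the study's methods name DESeq2 for its own tests. The table deposited by the authors holds whole-number counts by gene symbol that were not normalized. The counting program, annotation and strand setting are not given in the sources used here.

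Members and lists were chosen with earlier results of these data known. Genes were tested with edgeR 4.0.16 (quasi-likelihood, TMM, filter by expression, robust, R 4.3.3), with Benjamini-Hochberg adjustment over the 14251 genes tested, and p-values are two-sided. DESeq2 1.42.0, the replicate number as a block, other normalizations, no filter, Alb as a covariate and leaving out libraries or pairs were alternatives. Log2 CPM had a prior count of 2. Libraries with the same number deviated from their group means together (correlation across genes from 0.15 to 0.32 in the 5 pairs, mean 0.25, against -0.06 for different numbers). Deviations from a group mean sum to 0, so the value for different numbers is largely set by the others and is no separate baseline. The numbers were read as pairs on these correlations, and the labels do not state a pairing. No 2 libraries of a group agreed within sampling noise (chi-square per degree of freedom at least 16.5). Coordinates, exon lengths and shared 50-base words came from GENCODE vM21 (GRCm38). Values in every library are given for members set by role, members at an unadjusted p of 0.05 or less, and the 3 with the highest and the 3 with the most negative fold change. Values of Pfkl, Pkm, Pfkp and Gpi1 were added after they were seen. Some of the further pathway genes are not reported here.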

Additional observations from a re-analysis of the deposited data

Results flagged for a closer look

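For each of the 33 genes the 5 DMSO and the 5 FICZ libraries were searched for a value apart from its group, and 6 of these 66 searches found one. Chance alone gives about 1 in 20, which would be 3.3. Each value below is the distance on the log2 CPM scale to the neighbouring library, divided by the distance from lowest to highest. In DMSO replicate 5 it was 0.853 for Higd1a, 0.835 for Pfkp, 0.832 for Pfkl and 0.776 for Pfkfb4. In FICZ replicate 5 it was 0.799 for Egln1 and 0.785 for Pgam1. The value was at the low end in all 6. Egln1 was at 53.5 CPM in FICZ replicate 5 and was also lowest in DMSO replicate 5, at 53.0 CPM. Pgam1 was at 64.8 CPM in FICZ replicate 5 and at 76.5 CPM in DMSO replicate 5, where DMSO replicate 4 was lower, at 75.0 CPM.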

How the results depend on the processing

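No member and no further pathway gene passed the threshold in any alternative. The number of all genes past it was 3, and became 8 with the replicate block, 16 with DESeq2 and 26 with DESeq2 and the replicate block, and lay between 1 and 8 when libraries or pairs were left out. The number of members at an unadjusted p of 0.05 or less was 2. It became 4 with the replicate block and 3 with DESeq2 and the replicate block, and lay between 1 and 4 when libraries or pairs were left out. Over all genes tested, 1.33% were higher and 3.49% lower at that p without the block, and 2.48% and 2.17% with it. The number of members whose groups did not overlap was 0, and 0 to 2 without 1 library. These were Pfkl without DMSO replicate 5, Pfkfb4 without FICZ replicate 1, Ddit4 without FICZ replicate 3, and Egln3 and P4ha1 without FICZ replicate 5. Groups separate more easily with 1 library fewer. The shares over all genes with libraries left out are not given here, so these counts cannot be set against them. The block moved Tiparp out of the calls, at an adjusted p of 0.0509 in edgeR and changed no call of a member at that threshold. The median log2 fold change of members lay between 0.001 and 0.054, and the difference in mean log2 CPM between 0.016 and 0.059, when libraries were left out. That difference was 0.061 over the tested members alone, a setting chosen after seeing the data.

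No tested member had an adjusted p under 0.999 in edgeR without the block, whether or not its sign changed. Of 286 alternative log2 fold changes of 13 named members, 15 changed sign. With Alb as a covariate these were Hif1a (0.083), Hk2 (-0.149), Ldha (-0.017), Pdk1 (0.306) and Bnip3 (0.055). Without DMSO replicate 5 they were Hif1a (0.077), Hk2 (-0.093), Ldha (-0.012) and Pdk1 (0.109), and with the replicate block and without pair 5 Hif1a (0.017), Hk2 (-0.069) and Pdk1 (0.099). Ldha was at -0.018 with the block and without pair 1 and at -0.014 without FICZ replicate 1, and Slc2a1 at -0.052 without FICZ replicate 3. The causes were not tested. Without 1 library or pair, the values lay between -0.151 and 0.077 for Hif1a, -0.052 and 0.234 for Slc2a1, -0.093 and 0.141 for Hk2, -0.018 and 0.066 for Ldha, and -0.361 and 0.109 for Pdk1. Egln3, Ddit4, P4ha1, Ndrg1, Epas1, Slc16a3 and Vegfa kept their direction throughout. Depth limits Car9 and Ankrd37, with at most 12 counts per library.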
